A study of Homo sapiens with 8 samples.

Results

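The probe sets described here carry no gene symbol in the array annotation and are nevertheless bright in CEM cells. They were chosen by annotation and level: the symbol field is empty, the name does not start with AFFX (the manufacturer's controls), and the mean log2 value over all 8 arrays is at least 7. The rule keeps 605 of 54675 probe sets. CEM is an established human T-cell leukaemia line. In 4 cultures ZMIZ1, a PIAS-like transcriptional coactivator, was targeted by an shRNA (ZMIZ1 knockdown), and 4 unpaired cultures received a scrambled shRNA (control). The labels give no second shRNA, clone or culture time, so loss of ZMIZ1 and any off-target action of the shRNA cannot be told apart; in RNA of whole cultures, fewer cells of a type and less RNA per cell cannot be told apart either. Total RNA was amplified with the 3' IVT Express kit and read on 1 Affymetrix HG-U133 Plus 2.0 array per culture, and each value is a log2 RMA signal.

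A probe set is a group of short oligonucleotides that together read 1 stretch of transcript. Many on this array were designed from expressed sequence tags, short reads of cDNA clones, and some of these were never tied to a gene: they can lie in introns, in unannotated 3' ends, in non-coding RNAs or in repeats. The end of the name says how specific the oligonucleotides were at design. A plain _at set matches 1 transcript, an _a_at set several transcripts of 1 gene, an _s_at set several transcripts, often of more than 1 gene, and an _x_at set holds oligonucleotides that can also bind unrelated sequences. The 18S ribosomal RNA probe sets, named HUMRGE, are controls of the manufacturer. Labelling starts from an oligo-dT primer, and ribosomal RNA has no poly(A) tail, so their signal is commonly read as ribosomal RNA that was copied into the labelled target.

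The files hold no title for any of the 605 probe sets (0 of 605) and a gene ID for 1 of them, which the RefSeq gene table used here does not list. They are therefore named by probe set ID, and neither position nor sequence is given. Of 12173 probe sets without a symbol, 605 (4.97%) reached the level limit, against 15086 of 42440 with a symbol (35.5%). The unnamed probe sets that reached it lay closer to the limit, with a median mean value of 7.89 and a highest of 14.66, against a median of 9.11 and a highest of 14.75 for those with a symbol. The limit itself marks no gap: the nearest members, 238859_at, 1560496_at and 227974_at, had means of 7.001, 7.001 and 7.003 and differences of -0.11, 0.09 and 0.42. The nearest probe sets outside it, 230161_at, 235424_at and 236836_at, had means of 6.998, 6.998 and 6.997 and differences of 0.76, 0.41 and -0.07. Levels are therefore given as a description, while the contrast of knockdown with control was not used by the rule. The rule's mean pools both groups, however, so a member can lie below the limit in knockdown or in control arrays alone. Some of the largest changes named below do so. The rise 215594_at had group means of 7.94 in knockdown and 6.89 in control arrays. The fall 229434_at had 6.72 in knockdown and 8.23 in control arrays. Others were above the limit in both groups, such as 227963_at (7.72 in knockdown and 9.09 in control arrays).

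Some features of the arrays bear on the results. The mean of the 3 18S probe sets was 12.12, 11.67, 9.85 and 10.21 in knockdown arrays 1 to 4, against 13.37, 13.24, 13.06 and 12.70 in control arrays 1 to 4. The groups did not overlap (-2.13, or 4.38-fold lower; exact two-sided permutation p = 0.0286, of 70 assignments the smallest possible), and knockdown arrays 3 and 4 stood apart from 1 and 2. Of the 28S ribosomal RNA probe sets, that for the 5' part had a difference of -0.52 (exact permutation p = 0.0286) and that for the middle one of 0.10 (exact permutation p = 0.514). The 3' minus 5' signal of ACTB, a measure of RNA integrity and of the reach of labelling, averaged 1.95 ± 0.45 in knockdown and 1.45 ± 0.71 in control arrays (SD, n = 4 each; exact permutation p = 0.286). The brightest ZMIZ1 probe set fell to 43.2% of its control level (-1.21 ± 0.08, SE; limma adjusted p = 0.000109). Of 9 T cell markers, CD3D, CD3G, CD247 and LCK had group means from 9.99 to 13.41, CD7 had 7.47 in knockdown and 7.52 in control arrays, and CD2 (4.12 and 4.02) and CD5 (5.87 and 5.71) were dim. CD3E was at 8.41 in knockdown and 7.36 in control arrays, and CD1A at 6.77 and 7.69. Among 9 markers of other cell types, EPCAM (8.17 in knockdown and 8.42 in control arrays) and COL1A1 (7.67 and 7.64) were above 7; whether these signals are expression or cross-hybridisation was not tested. Since knockdown arrays 3 and 4 stood apart, the main results are also given from knockdown arrays 1 and 2 only.

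Falls and rises were nearly balanced among the unnamed bright probe sets, whereas rises were the larger part among named ones. Of the 605, 82 rose (13.6%), 90 fell (14.9%) and 433 did not pass the test in knockdown against control arrays (limma, adjusted p under 0.05 over all 54613 probe sets tested). Over all probe sets tested 13.9% passed, 8.38% higher and 5.52% lower, a background that holds mostly dim probe sets. Of the 15086 symbol-bearing probe sets above the same level limit, 2944 rose (19.5%) and 1583 fell (10.5%). Weighting the symbol-bearing probe sets to the level bins of the unnamed ones gave 21.9% higher and 10.1% lower. Calls in either direction were made for 28.4% of the unnamed probe sets and, level for level, 32.1% of the named ones. The median difference was -0.04 (quartiles -0.28 and 0.19) for the unnamed and 0.06 (quartiles -0.16 and 0.27) for the symbol-bearing probe sets. No test of the gap between these sets was made, and the direction of neither set's median was tested.

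The excess of falls over rises among the unnamed probe sets depends on the setting. With each array centred on its median, 94 of the 605 rose and 82 fell, against 3407 and 1365 of the symbol-bearing ones. Of all probe sets 10.1% then rose and 4.56% fell. Of the 503 that are not _x_at sets, 77 rose and 66 fell in the fit with all arrays. In that fit 8.38% of all probe sets rose and 5.52% fell. With knockdown arrays 1 and 2 only, 24 of the 605 rose (3.97%) and 16 fell (2.64%), 40 in all (6.61%). Of all probe sets 2.23% then rose and 1.33% fell, 3.56% in all, and 7.82% of the symbol-bearing ones passed. Without control replicate 3, 64 rose and 54 fell (8.16% of all probe sets passed), without knockdown replicate 3, 60 and 58 (8.77%), and without knockdown replicate 4, 55 and 52 (8.13%). The last is 107 calls, against 172 with all arrays. By contrast, falls took a larger part of the calls among unnamed than among symbol-bearing probe sets in 21 of 21 settings that gave calls for both. The parts went from 40.0% against 37.2% with knockdown arrays 1 and 2 only to 60.3% against 35.6% without control replicate 4. The 21 include the main fit and a repeat of it on the same values. All of these settings share arrays and are not independent. In the authors' deposited table, with p under 0.01 and over a 1.3-fold difference, 52 of the 605 were higher and 45 lower. The symbol-bearing ones had 1726 higher and 811 lower, and of all probe sets 4.78% were higher and 2.5% lower.

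By level, the share of rises was below that of the symbol-bearing probe sets in each bin, as the plot of shares by level shows. Between 7 and 8, where 330 of the 605 lie, 41 rose (12.4%) and 32 fell (9.7%), against 22.5% and 9.53% of 3643 symbol-bearing probe sets. Between 8 and 9, 29 of 173 rose (16.8%) and 40 fell (23.1%), against 23.8% and 10.7% of 3508. Between 9 and 10, 6 of 56 rose (10.7%) and 11 fell (19.6%), against 18.8% and 11.9% of the symbol-bearing ones. At 10 and over, 6 of 46 rose (13%) and 7 fell (15.2%), against 14.6% and 10.2%. The share of falls was thus alike in the lowest bin and larger for the unnamed probe sets in the other bins. Above 9 these shares rest on few unnamed probe sets, and at 10 and over the share of rises was close to the symbol-bearing one.

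**Figure D1:**
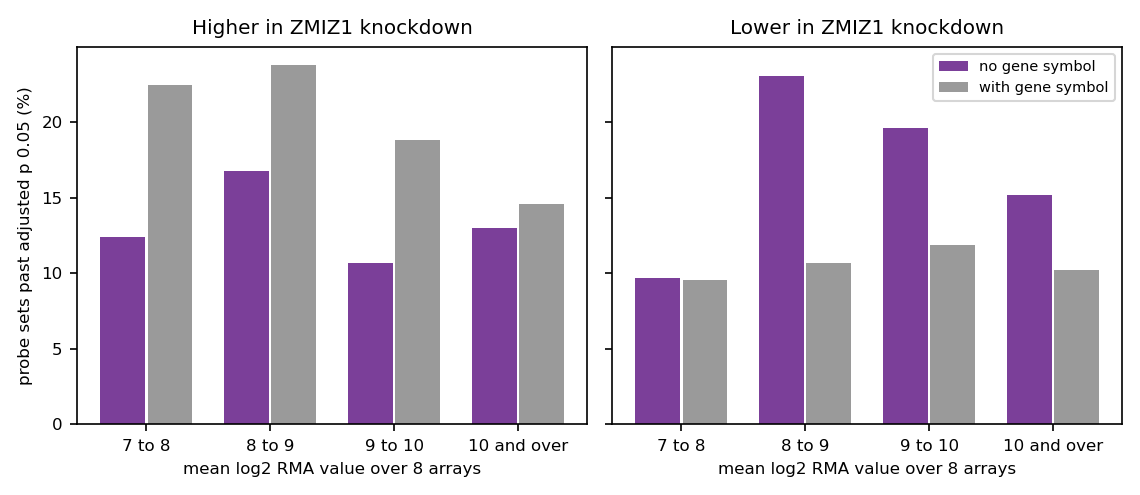
Share of probe sets past an adjusted p of 0.05 (y axis, percent) that were higher (left) or lower (right) in ZMIZ1 knockdown, by mean log2 value over 8 arrays (x axis), for probe sets without a symbol (purple) and with one (grey). Between 8 and 9, 23.1% of the unnamed probe sets fell, against 10.7% of the named ones, while 16.8% and 23.8% rose.

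Most changes were well under 2-fold. The median rise was 0.48 (1.39-fold) and the median fall -0.57 (1.48-fold). Of the 82 rises 3 reached 2-fold, and of the 90 falls 6. Among symbol-bearing probe sets, 54 of 2944 rises and 216 of 1583 falls did. Over all probe sets tested, 99 of 4579 rises and 321 of 3013 falls did. The groups did not overlap in 80 of the 82 that rose and in 77 of the 90 that fell. Over all members, called or not, groups did not overlap in 209 of 605 (34.5%; 104 higher and 105 lower). Over all probe sets tested this share was 19.8% (11.6% higher and 8.21% lower), and over the symbol-bearing ones 39.1%.

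The largest falls were of 2 kinds. In the first, knockdown arrays 3 and 4 lay far below 1 and 2. 212608_s_at had values of 8.08, 7.89, 6.95 and 7.001 in knockdown arrays 1 to 4, against 9.60, 9.06, 9.04 and 8.83 in control arrays. It fell by 1.65 ± 0.26 (SE; adjusted p = 0.00310), or by 1.15 with knockdown arrays 1 and 2 only (adjusted p = 0.0236). 212605_s_at followed the same course, at 7.51, 7.36, 6.24 and 6.55 in knockdown arrays and 8.67, 8.41, 8.29 and 8.04 in control arrays (-1.44 ± 0.26; adjusted p = 0.00573), and its difference was -0.92 with knockdown arrays 1 and 2 only (adjusted p = 0.0261). In both, the groups did not overlap and all 8 arrays stood in the order of the 18S mean. Whether both read 1 transcript is not stated in the files.

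229434_at and 1556646_at had the same split within the knockdown group. 229434_at had 7.39, 7.39, 6.11 and 5.98 in knockdown arrays, against 8.46, 8.63, 8.25 and 7.58 in control arrays (-1.51 ± 0.35; adjusted p = 0.0165). Knockdown arrays 1 and 2 came close to the lowest control array, and with these 2 only the difference was -0.84 and did not pass (adjusted p = 0.111). 1556646_at had 7.45, 7.32, 6.19 and 6.07 in knockdown arrays, against 8.52, 7.92, 8.09 and 8.08 in control arrays (-1.39 ± 0.30; adjusted p = 0.0121), and -0.77 without knockdown arrays 3 and 4 (adjusted p = 0.0402). 230180_at had the largest difference of all 605, -1.72 ± 0.53, but did not pass (adjusted p = 0.0566). Its values were 8.03, 7.01, 5.81 and 6.0 in knockdown arrays and 9.05, 9.39, 8.01 and 7.29 in control arrays, so that the groups overlapped and each spread over more than a 2-fold range. With knockdown arrays 1 and 2 only its difference was -0.91 (adjusted p = 0.412), and with the 18S mean as a covariate it was 0.49 (adjusted p = 0.767). It passed with a mean-variance trend or with probe sets of mean 5 or more only (adjusted p = 0.0473 each), array weights (0.0209), the replicate block (0.00435), without control replicate 4 (0.0224) and without knockdown replicate 1 (0.0184).

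In the second kind the 4 knockdown arrays were close together. 227963_at had 7.68, 7.77, 7.69 and 7.72 in knockdown arrays, against 8.61, 9.06, 9.26 and 9.41 in control arrays. It fell by 1.37 ± 0.15 (adjusted p = 0.000628), to 38.7% of the control level, and by 1.36 with knockdown arrays 1 and 2 only. Here the spread was among the controls (SD 0.35, against 0.04 in knockdown), which ran opposite to the 18S mean. 1556395_at (8.03, 7.90, 7.98 and 7.93 in knockdown arrays, 9.43, 8.88, 8.85 and 8.50 in control arrays) fell by 0.96 ± 0.16 (adjusted p = 0.00388) and had -0.95 with knockdown arrays 1 and 2 only (adjusted p = 0.0530). 239973_at fell by 0.95 ± 0.13, with 9.61, 9.61, 9.30 and 9.05 in control arrays. Unlike in 227963_at, the control arrays stood in the order of the 18S mean in 1556395_at, and nearly so in 239973_at. The slope on the 18S mean, described below, did not pass in 227963_at, 1556395_at or 239973_at (limma adjusted p = 0.883, 0.839 and 0.728). 230053_at, between both kinds, fell by 0.97 ± 0.12, with group SDs of 0.18 each. The other falls among the 12 largest were 224549_x_at (-1.50), 217679_x_at (-1.0), 210098_s_at (-0.94) and 232198_at (-0.90), in all of which knockdown arrays 3 and 4 were the 2 lowest of 8.

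The largest rises were smaller than the largest falls. Symbol-bearing probe sets had the same order, with a largest called rise of 1.82 and a largest called fall of 2.43. 215594_at had 7.63, 7.79, 8.23 and 8.12 in knockdown arrays, against 6.65, 6.84, 7.07 and 6.98 in control arrays (1.06 ± 0.14, SE; adjusted p = 0.00159). 1562836_at had 8.14, 8.40, 8.82 and 8.89 in knockdown arrays, against 7.26, 7.77, 7.65 and 7.34 in control arrays (1.06 ± 0.17; adjusted p = 0.00371). In both, knockdown arrays 3 and 4 were the 2 highest of 8. With knockdown arrays 1 and 2 only the differences were 0.82 (adjusted p = 0.0198) and 0.76 (adjusted p = 0.0419). 211633_x_at rose by 1.02 ± 0.12, with values of 7.84, 7.85, 8.24 and 7.90 in knockdown arrays against 7.21, 6.83, 6.94 and 6.78 in control arrays.

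227682_at and 227531_at showed almost no spread among the knockdown arrays. 227682_at had 7.98, 7.95, 7.95 and 7.96 in knockdown arrays, against 7.14, 7.17, 7.19 and 6.97 in control arrays (0.84 ± 0.07; adjusted p = 0.000314). 227531_at had 9.34, 9.49, 9.32 and 9.40 in knockdown arrays, against 8.65, 8.65, 8.59 and 8.36 in control arrays (0.82 ± 0.09; adjusted p = 0.000621). Their differences with knockdown arrays 1 and 2 only were 0.85 each, and both passed. The remaining 7 of the 12 largest rises, 230123_at, 1556123_a_at, 230449_x_at, 228910_at, 228612_at, 226579_at and 228639_at, had differences from 0.82 to 0.99. With knockdown arrays 1 and 2 only, 16 of the 24 named rises and falls passed; 8 did not, 6 of them falls.

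**Figure D2:**
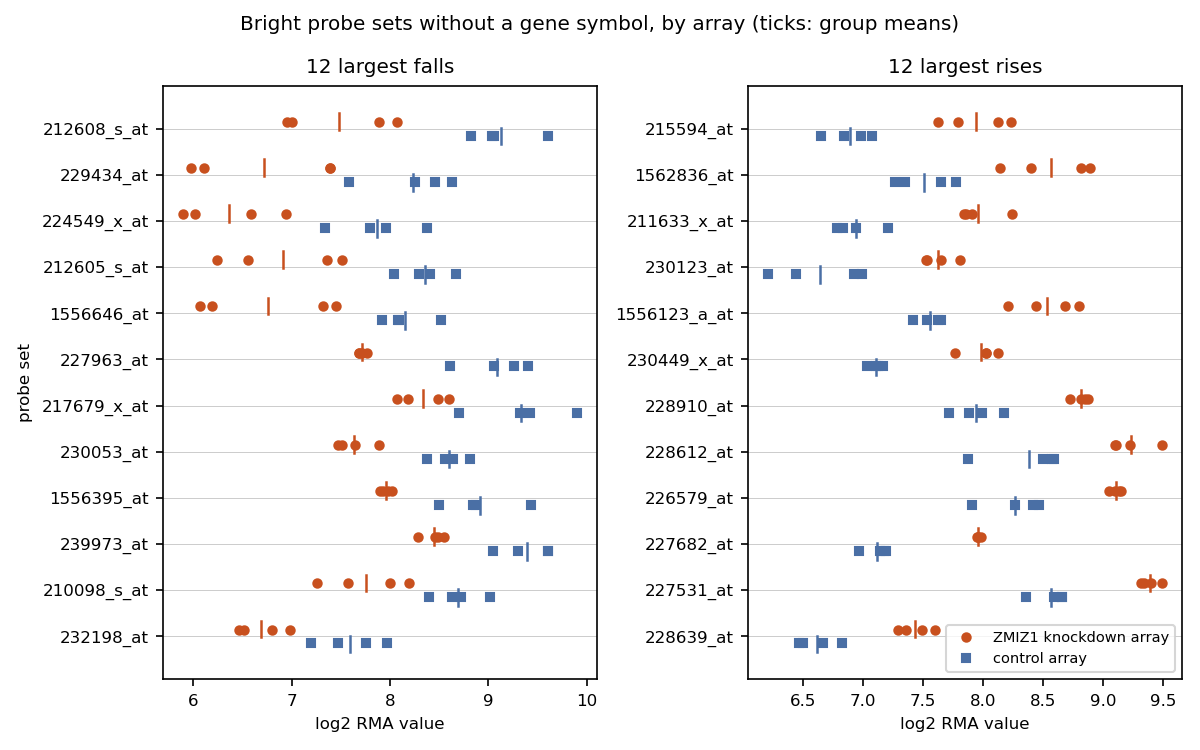
Log2 RMA values (x axis) of the 12 largest falls (left) and 12 largest rises (right) in each ZMIZ1 knockdown array (orange circles) and each control array (blue squares), with group means as ticks. In 212608_s_at the knockdown arrays fall into 2 pairs near 8 and 7, whereas in 227963_at they lie between 7.68 and 7.77.

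The brightest unnamed probe sets did not pass the test. 221798_x_at, at the top of the array's scale, had a mean of 14.66 ± 0.02 in knockdown and 14.67 ± 0.01 in control arrays (SD, n = 4 each). The next 7 by level, 216342_x_at, 217256_x_at, 217329_x_at, 217379_at, 225716_at, 216505_x_at and 200749_at, had differences from -0.21 to 0.28 and adjusted p from 0.0568 to 0.799. 225716_at had 11.76, 11.72, 11.67 and 11.64 in knockdown arrays, against 11.88, 11.90, 11.93 and 11.91 in control arrays. Its groups did not overlap, and the 95% confidence interval of its difference was -0.35 to -0.07. It passed in 4 of the other settings, with adjusted p from 0.0175 to 0.0356, and not in the others.

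By specificity class, the share that fell was largest among the _x_at sets (23.5%), those least specific by design. Of the 605, 449 were plain _at, 102 _x_at, 43 _s_at and 11 _a_at; of the 15086 symbol-bearing probe sets, 1548 were _x_at. Among the 102 _x_at sets 5 rose and 24 fell, and their median difference was -0.23. Among 1548 symbol-bearing _x_at sets 264 rose and 136 fell, with a median of 0.04. The plain _at sets without a symbol had 72 rises and 58 falls (median -0.01), against 1654 and 821 of 7870 with a symbol (median 0.07). Of the 43 _s_at sets 4 rose and 6 fell, against 992 and 601 of 5433 with a symbol, and of the 11 _a_at sets 1 rose and 2 fell, against 29 and 23 of 210. The gap in _x_at sets was present between 7 and 8 (12 of 57 fell and 2 rose, against 34 and 48 of 348 named) and between 8 and 9 (10 of 29 fell and 2 rose, against 29 and 74 of 320). Of 4 between 9 and 10, 1 fell, and of 12 at 10 and over, 1 fell and 1 rose. With knockdown arrays 1 and 2 only, 0 of the 24 falls and 2 of the 5 rises passed, against 31 of 136 and 56 of 264 for the symbol-bearing _x_at sets. The median difference of the 24 was then -0.44, against -0.57 with all arrays, and that of the 102 was -0.18.

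The median of the unnamed _x_at sets was 7.83, 7.80, 7.59 and 7.66 in knockdown arrays 1 to 4, against 7.99, 8.27, 7.96 and 7.81 in control arrays 1 to 4. Control replicate 2 was the highest of the 4 controls in 65.7% of them and control replicate 4 the lowest in 67.6%. In symbol-bearing _x_at sets these shares were 31.8% and 40.1%, and their array medians stayed between 9.36 and 9.43. Within the knockdown group no array was highest or lowest as often: knockdown replicate 1 was the highest in 41.2% of the unnamed _x_at sets and knockdown replicate 3 the lowest in 38.2%. Knockdown arrays 3 and 4 were the 2 lowest of 8 in 43 of the 102 unnamed _x_at sets (42.2%), against 263 of the 1548 named ones (17.0%).

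216187_x_at, a bright example named after its values were seen, had 9.87, 10.02, 9.64 and 9.49 in knockdown arrays and 10.44, 11.16, 10.71 and 9.96 in control arrays (-0.81 ± 0.22; adjusted p = 0.0315). Its control group spanned more than a 2-fold range, and control replicate 4 lay within the range of the knockdown arrays. Its difference was -0.63 with knockdown arrays 1 and 2 only (adjusted p = 0.256). 224549_x_at had 6.94, 6.59, 5.89 and 6.02 in knockdown arrays, against 7.96, 8.37, 7.80 and 7.34 in control arrays (-1.50 ± 0.25; adjusted p = 0.00410), and its difference was -1.10 with knockdown arrays 1 and 2 only (adjusted p = 0.0513). The exceptions in direction included 230449_x_at, which rose by 0.88 ± 0.09, and 217249_x_at, also named after its values were seen. 217249_x_at had 11.70, 11.68, 11.83 and 11.82 in knockdown arrays, against 11.42, 11.46, 11.39 and 11.16 in control arrays (0.40 ± 0.08; adjusted p = 0.0119), and 0.33 with knockdown arrays 1 and 2 only (adjusted p = 0.132). In both the groups did not overlap.

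The control probe set for Alu, the most abundant short interspersed repeat of the human genome, had a like order of arrays. Alu copies lie in many introns and untranslated regions, and oligonucleotides within them can bind many transcripts. The Alu probe set had 14.52, 14.48, 14.29 and 14.34 in knockdown arrays 1 to 4, against 14.56, 14.65, 14.56 and 14.47 in control arrays 1 to 4 (-0.15; exact two-sided permutation p = 0.0857), near the top of the scale. Control replicate 2 was again the highest array and knockdown arrays 3 and 4 the lowest. A positive slope on the Alu signal passed in 3 of the 102 unnamed _x_at sets (2.94%). The share was 1.03% of the symbol-bearing _x_at sets and 0.352% of all probe sets. The slope on the 18S mean, described below, passed in 0 of the 102, against 20 of the 1548 symbol-bearing _x_at sets and 0.69% of all probe sets. Whether the unnamed _x_at sets hold repeat sequence was not tested, since no oligonucleotide sequences were used here.

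**Figure D3:**
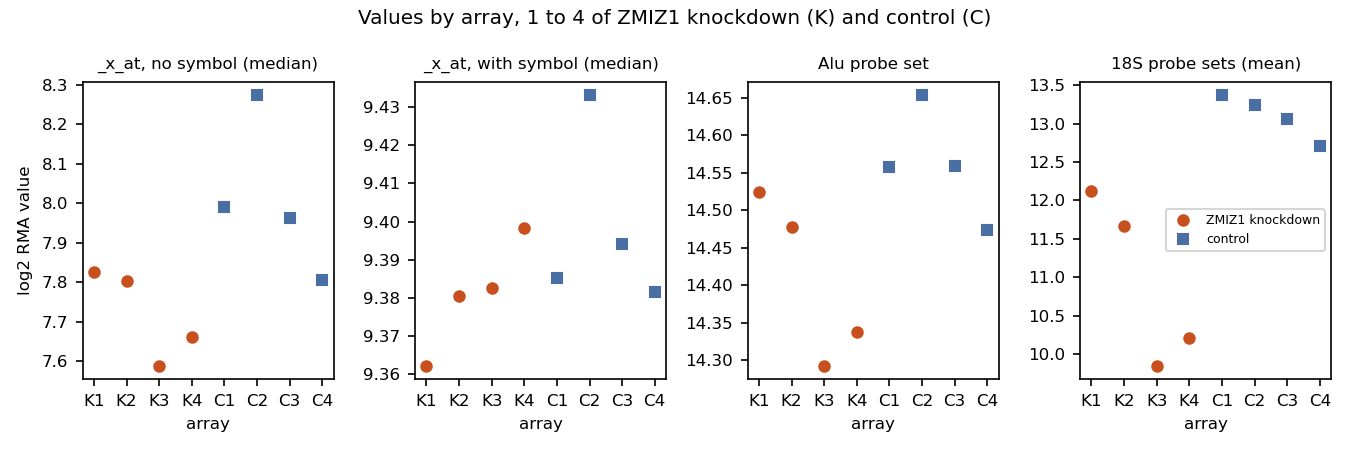
Log2 RMA values (y axes, separate scales) in ZMIZ1 knockdown arrays 1 to 4 (orange circles) and control arrays 1 to 4 (blue squares). Panels show the median of the 102 _x_at sets without a symbol, the median of 1548 _x_at sets with a symbol, the Alu probe set and the mean of the 3 18S probe sets. Knockdown arrays 3 and 4 are lowest in the panels for unnamed _x_at sets, Alu and 18S, and named _x_at medians lie between 9.36 and 9.43.

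The 18S signal was then set against each probe set within the groups. A pooled correlation over the 8 arrays would mix this relation with the group difference, so the slope on the 18S mean was fitted together with group. The median slope was 0.016 for the 605 unnamed probe sets and -0.010 for the symbol-bearing ones, and it was positive in 342 of 605 (56.5%), against 46.0% of the symbol-bearing ones and 48.7% of all. A slope of 0.016 is a difference of 0.016 on the log2 scale between arrays of 1 group whose 18S signal differs 2-fold. The middle 50% of the slopes of the unnamed probe sets lay between -0.048 and 0.11, and 6 (0.992%) exceeded 0.5. The share over 0.5 was 1.21% of the symbol-bearing probe sets and 0.547% of all. The slope passed the test in 7 of the 605 (1.16%), all positive, against 0.69% of all probe sets in either direction and 0.643% with a positive slope; the share among symbol-bearing probe sets was 1.65%.

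These 7 were 229434_at (slope 0.73), 1556646_at (0.63), 212605_s_at (0.58), 212608_s_at (0.56), 228655_at (0.43), 232569_at (0.37) and 216028_at (0.31), in log2 units per log2 unit of 18S signal; the last 3 are named since they complete the count. All 7 are among the 90 that fell. Among symbol-bearing probe sets the slope passed in 134 of 1583 falls and in 9 of 2944 rises. The 18S mean was itself lower in knockdown arrays, so a positive slope and a fall are not independent. 212605_s_at followed the 18S mean most closely (slope 0.58 ± 0.06, SE; adjusted p = 0.00259). 228655_at, which fell by 0.89, had 8.30, 8.31, 7.50 and 7.52 in knockdown arrays and 9.06, 8.90, 8.74 and 8.51 in control arrays. With knockdown arrays 1 and 2 only, 228655_at (-0.50; adjusted p = 0.104), 232569_at (-0.30; adjusted p = 0.267) and 216028_at (-0.43; adjusted p = 0.0780) did not pass for knockdown against control. The count of 7 depends on single arrays, chiefly knockdown ones, which hold most of the 18S range: it was 0 without knockdown replicates 1 or 3, 1 without knockdown replicates 2 or 4, and 13 without control replicate 2. 230180_at had the steepest slope, 1.04 ± 0.22, and did not pass (adjusted p = 0.0758). The steepest negative slopes were those of 229934_at (-0.31), 226542_at (-0.29), 1562836_at (-0.28), 215594_at (-0.27) and 221419_s_at (-0.27), and none of them passed (adjusted p from 0.0971 to 0.528).

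**Figure D4:**
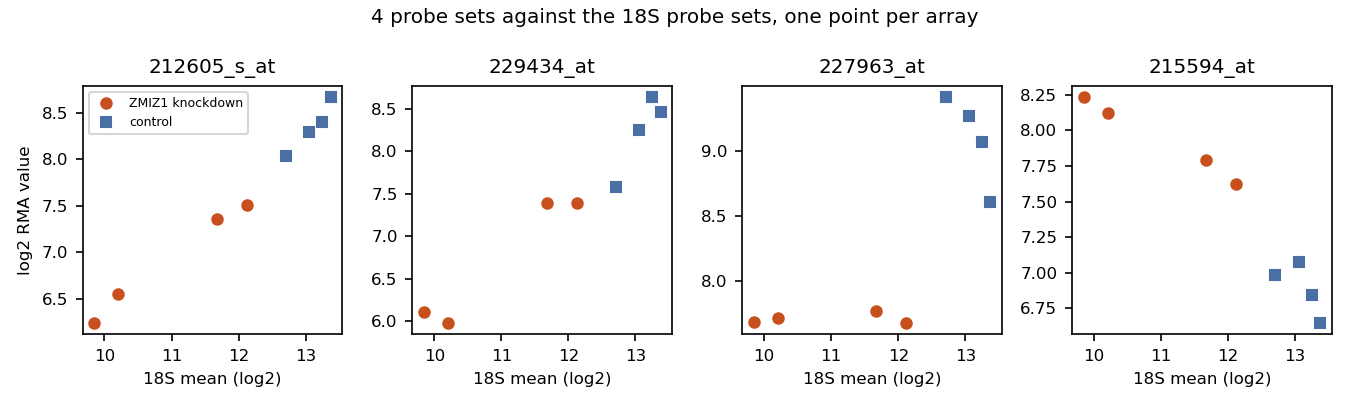
Log2 RMA value (y axes) of 4 unnamed probe sets against the mean log2 value of the 18S probe sets (x axes), 1 point per array, for ZMIZ1 knockdown (orange circles) and control (blue squares). 212605_s_at and 229434_at climb with the 18S signal in both groups, 227963_at stays between 7.68 and 7.77 over the whole knockdown range, and 215594_at declines with it.

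With the 18S mean as a covariate, 0 of the 605 passed for knockdown against control (limma, adjusted p under 0.05). In this fit 32 symbol-bearing probe sets and 0.0879% of all passed. An unadjusted limma p under 0.05 was found for 109 of the 605. It was found for 2761 of the 15086 symbol-bearing probe sets and for 7106 of all 54613. The median standard error of the rises was 0.156 with the covariate and 0.0933 without it, and that of the falls 0.183 with it and 0.117 without it. Among the 82 that rose the median difference was 0.41 with the covariate and 0.48 without it. Among the 90 that fell it was -0.30 with it and -0.57 without it. Signs were the same for 81 of the 82 and for 84 of the 90. The medians of the symbol-bearing rises were 0.32 with the covariate and 0.46 without it, and those of the symbol-bearing falls -0.33 with it and -0.52 without it.

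Single members behaved differently under the covariate. The differences of 229434_at (0.05) and 1556646_at (-0.06) were near 0 with it, 212605_s_at had -0.21 and 212608_s_at -0.47, while 227963_at had -1.50 ± 0.27 (adjusted p = 0.0749). Of the rises, 227682_at had 0.90 ± 0.13 (adjusted p = 0.0542) and 227531_at 0.94 ± 0.16 (adjusted p = 0.0668), as large as without the covariate, whereas 215594_at (0.48) and 1562836_at (0.45) were less than 50% as large on the log2 scale. The 18S signal and the knockdown cannot be told apart where they differ together between the groups; the covariate uses their relation within the groups.

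Knockdown arrays 3 and 4 were the 2 lowest of the 8 arrays in 128 of the 605 (21.2%) and the 2 highest in 88 (14.5%). Symbol-bearing probe sets weighted to the same level bins had 15.6% and 26.4%. Of the 90 that fell, these arrays were lowest in 56, against 993 of 1583 symbol-bearing falls, and of the 82 that rose, highest in 46, against 1888 of 2944 symbol-bearing rises. With knockdown arrays 3 and 4 only, 72 of the 605 rose (11.9%) and 89 fell (14.7%), against 24 and 16 with knockdown arrays 1 and 2 only. Of all probe sets 7.73% rose and 5.36% fell with knockdown arrays 3 and 4 only.

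Spread between replicates was larger among controls for the bright probe sets, named or not, but not over all probe sets (median SD 0.124 in each group). The median SD of an unnamed probe set was 0.116 in knockdown arrays and 0.167 in control arrays, against 0.110 and 0.141 for symbol-bearing ones. Control replicate 4 was the lowest control in 54.9% of the unnamed probe sets and in 34.2% of the named ones, and it had the lowest 18S signal of the controls. The array medians of the 605 were 7.89, 7.92, 7.87 and 7.87 in knockdown arrays, against 7.97, 8.03, 7.92 and 7.82 in control arrays, so that control replicate 4 lay below all knockdown arrays.

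The number range of the ID, which follows the array design in which a probe set first appeared, was a further property that the rule did not use. The range used largely by the first (A) array of the HG-U133 set holds 106 of the 605 and 9761 of the 15086 symbol-bearing probe sets. Among the 106, 7 rose and 21 fell (median -0.06), against 1861 and 1014 of the 9761 (median 0.05). The lower part of the range used largely by the B array holds 361 of the 605, of which 57 rose and 45 fell, against 872 and 475 of 4269 with a symbol. Its upper part holds 65, of which 9 rose and 10 fell, against 38 and 16 of 177. Of the 72 with 7-digit IDs, which came in with the Plus 2.0 design, 8 rose and 14 fell, against 95 and 62 of 578. The single probe set with an older ID rose by 0.34.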

How the data were processed

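RNA of 4 ZMIZ1 knockdown and 4 control cultures was measured on 8 arrays. The authors deposited a log2 value per probe set and array, made with RMA per the submitters' processing notes (version not given in the sources used here). Per the file headers, their workbook adds annotation, group means, an unadjusted 2-sample p-value and a ratio of knockdown over control. Workbook and value table differed by at most 5e-09, and the deposited p-value was matched to within 5.63e-09 by an equal-variance test. Arrays give no counts; their number, 4 per group, limits the precision.

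Differences are knockdown minus control, from limma 3.58.1 in R 4.3.3 (lmFit, eBayes, two-sided, Benjamini-Hochberg over 54613 probe sets, the 62 AFFX sets left out). Intervals are at 95%, and SE is that of limma. Named were the 12 largest rises and 12 largest falls past adjusted p 0.05 without overlap, the 8 brightest, the 5 steepest 18S slopes each way, the 3 nearest the limit on each side, control probe sets and ZMIZ1; any other is marked as such in the text. Slopes came from a fit with group. The fit was tested on simulated data with independent noise for each probe set and array. Such data hold no shift shared by arrays, so that test cannot show how the fit behaves where knockdown arrays 3 and 4 move together. Members, lists and tests were chosen with earlier results of these data known. Sequences of the probe sets were not used here.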

Additional observations from a re-analysis of the deposited data

Results flagged for a closer look

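A single array stood apart from the other 3 of its group in 2 of 100 groups of 4 arrays examined, where chance flags about 1 in 20. In 211633_x_at, 1 of the 12 largest rises, knockdown replicate 3 had a value of 8.24, against 7.84 to 7.90 in the other knockdown arrays. In 228612_at, also among the rises, control replicate 4 had a value of 7.87, against 8.50 to 8.59 in the other control arrays. Both passed without any single array.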

How the results depend on the processing

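Of the unnamed bright probe sets, 172 passed (82 higher, 90 lower), with 4527 symbol-bearing and 7592 of all probe sets. The equal-variance test gave 89 (52 and 37), 2527 and 3910, the 18S covariate 0 (0 and 0), 32 and 48, and knockdown arrays 1 and 2 only 40 (24 and 16), 1180 and 1943. A level limit of 6 gave 321 of 1426 (166 and 155) and a limit of 8 gave 99 of 275 (41 and 58), by construction from other numbers of probe sets. Of these, 18S slopes passed in 13 and 3, against 0.69% of all probe sets. Without _s_at, _x_at and _a_at sets 58 fell and 2482 symbol-bearing sets passed, from fewer probe sets. Leaving out single arrays gave 107 to 189 calls (55 to 88 higher, 52 to 114 lower), 2640 to 4555 symbol-bearing and 4438 to 7430 of all, 0 to 13 18S slopes, and an 18S difference from -2.52 to -1.76 (exact permutation p = 0.0571, the smallest that 7 arrays allow). Under the 18S covariate 229434_at turned to 0.051 (adjusted p = 0.963) and, among named probe sets that did not pass, 230180_at to 0.49, 226542_at to -0.24, 221419_s_at to -0.038, 217379_at to -0.054 and 221798_x_at to 0.018. The last also turned to 0.023 with median centring and 0.0050 with knockdown arrays 1 and 2 only, and 217379_at ranged from -0.021 to 0.077 without single arrays. Of the 24 named rises and falls, 0 passed with that covariate, 16 with the equal-variance test and 23 without knockdown replicate 3, where 229434_at did not (adjusted p = 0.0503). All 24 passed with each other array left out and with median centring, mean-variance trend, array weights, probe sets of mean 5 or more and the value table. The causes were not tested. The replicate number as a block gave 177 calls (72 higher, 105 lower) and kept all 24. With this block 3912 symbol-bearing probe sets (2428 and 1484) and 6698 of all 54613 passed. Same-numbered arrays deviated together with r from -0.09 to 0.06, and the design text calls the replicates unpaired. Signal near the top of the scale limits what the Alu probe set and 221798_x_at can show.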
